A study of Homo sapiens with 12 samples.

Results

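The 7 genes described here encode the CDK inhibitors, 3 of the CIP/KIP family (CDKN1A, CDKN1B and CDKN1C) and 4 of the INK4 family (CDKN2A, CDKN2B, CDKN2C and CDKN2D). They were taken by symbol from the 43876 genes of an RNA-seq table of MV4-11 cells, by a rule that reads names and no values. All 7 were in the table. CDKN1C was not expressed, with an FPKM (fragments mapped to a gene, scaled to its length and to the depth of the library) under 1 in each library, and the other 6 were among the 18574 genes tested.

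MV4-11 is a human acute myeloid leukemia line that carries the FLT3-ITD mutation, although the sample labels give its genotype as wild-type. The cells received 20 nM mitoxantrone (Mito-Lipo), 25 nM gilteritinib (Gilteritinib), 20 nM of each drug together (Com) or DMSO alone, and RNA was taken at 24 h. The labels call the first drug mitoxantrone and the study's text calls it mitoxantrone-liposome. Each condition had 3 libraries, numbered 1 to 3, of this 1 line, and no source says whether they were separate cultures, so the p-values below measure the spread between these libraries, which may be technical. Gilteritinib was at a lower dose in Com than alone.

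CDK inhibitors are small proteins that hold the cell cycle back. CIP/KIP proteins bind complexes of cyclin E or A with CDK2, whereas INK4 proteins bind CDK4 and CDK6 and keep D-type cyclins from activating them, which leaves the RB protein unphosphorylated and E2F factors silent. CDKN1A is a direct target of the p53 protein after DNA damage, and mitoxantrone damages DNA by trapping topoisomerase II. Gilteritinib blocks the FLT3 kinase, whose mutant form drives growth of these cells.

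Depth, recovered from the steps that single fragments leave in the FPKM values, was 31725015 to 41330654 fragments per library. All 10 marker genes chosen for this line exceeded an FPKM of 1 in every library, with FLT3 at 132 to 171 and MPO, a granule enzyme, lowest at 1.55 to 2.66. Among markers of T cells, red cells, platelets, epithelium and fibroblasts, HBB, a globin of red cells, was alone in reaching an FPKM of 1 in at least 3 libraries, at 0 to 2.85. The libraries numbered 1 stood apart from the others in every condition, and the first principal component, with 41.9% of the variance, separated them from libraries 2 and 3. Between library 1 and another library of its condition the mean chi-square per gene was 55.8 to 96.1, and between libraries 2 and 3 it was 5.02 to 15. Libraries 2 and 3 therefore differed beyond counting on the mean, with a median of 1.11 to 3.31, and were kept as separate samples. This does not make them independent replicates. Most comparisons of the members below are given over all 12 libraries and over libraries 2 and 3.

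Differences were tested with limma on log2(FPKM + 1) over all 18574 genes, and a gene was called at an adjusted p under 0.05. The scale understates the change of genes with low values. In bulk RNA, fewer cells of a type and less RNA per cell cannot be told apart.

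In order of mean FPKM over the 12 libraries, CDKN1B was first with 46.4, followed by CDKN1A with 42.06, CDKN2A with 32.5, CDKN2C with 17.16, CDKN2D with 11.81, CDKN2B with 3.08 and CDKN1C with 0.0266. FPKM is per length, so these levels can be set side by side between genes, but their order depends on the length used. The length recovered for CDKN2A was 1052 nt, where its annotated exons cover 4329 nt. For CDKN2C it was 2904 of 3318 nt. CDKN2A had fewer fragments than CDKN2C in the 12 libraries together, 14962 against 21712, so its higher place rests on the shorter length. The first places were not separate, since CDKN1B was above CDKN1A in 8 of 12 libraries and CDKN1A above CDKN2A in 6 of 12. Each later neighbor was lower in 12 of 12 libraries. CDKN1A varied most, with a highest value 5.93 times its lowest, and CDKN1B least, at 1.37 times.

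CDKN1A encodes p21, an inhibitor of CDK2 complexes and a main effector of the arrest that p53 sets. The gene lies on chromosome 6 at 36676460 to 36687339 (GRCh38, plus strand). Its promoter is shown because CDKN1A had the largest differences of the family. These 120 bases end just before the RefSeq start (chr6:36678594-36678713, GRCh38.p14, plus strand), and capitals mark GGGCGG, the core that Sp1 proteins bind, on either strand.
CDKN1A: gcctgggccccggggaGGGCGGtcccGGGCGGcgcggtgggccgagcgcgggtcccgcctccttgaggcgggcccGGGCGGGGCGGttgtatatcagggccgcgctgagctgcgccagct

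In the Mito-Lipo libraries CDKN1A was at an FPKM of 113.1 in library 1, 45.4 in library 2 and 45.11 in library 3. DMSO had 48.4, 19.29 and 19.06 in the same order. Within each number, Mito-Lipo was therefore well above DMSO, while Mito-Lipo libraries 2 and 3 lay under DMSO library 1, so the conditions overlapped. Com had 92.13, 30.07 and 30.71, above DMSO within each number and under Mito-Lipo within each number. Gilteritinib had 20.22, 20.32 and 20.85. Here library 1 was not raised, which sets it apart from the other conditions. The Gilteritinib SD of 0.336 was under the counting error of 0.465 to 0.493 per library.

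The fitted log2 difference of CDKN1A between Mito-Lipo and DMSO was 1.20 with an SE of 0.49, a fold of 2.3 (adjusted p = 0.582, limma). By number the differences were 1.21, 1.19 and 1.20, so the change itself barely varied while the level did. In libraries 2 and 3, CDKN1A rose by 1.20 with an SE of 0.03 (adjusted p = 0.000159, limma). Within each condition, libraries 2 and 3 differed in CDKN1A by about the counting error of 0.485 to 0.794 FPKM per library, or less. The SE over these libraries may thus hold little more than counting, and not the spread between cultures. The value of DMSO library 1 is 3954.19 fragments at the gene length of 2267 nt, the only value of a member that is not a whole number of fragments. Without that library the difference was 1.63 (adjusted p = 0.534, limma), and without Mito-Lipo library 1 it was 0.77.

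Com exceeded DMSO by 0.73 with an SE of 0.49 (adjusted p = 1, limma) in CDKN1A, by 1.16 without DMSO library 1 and by 0.21 without Com library 1. CDKN1A rose by 0.64 with an SE of 0.03 in Com over libraries 2 and 3 (adjusted p = 0.0145, limma). Com was under Mito-Lipo in 3 of 3 numbers, at a fitted -0.47 with an SE of 0.49 (adjusted p = 0.985, limma) that ranged from -0.99 without Com library 1 to -0.04 without Mito-Lipo library 1, and over libraries 2 and 3 at -0.56 with an SE of 0.03 (adjusted p = 0.000749, limma). CDKN1A was thus highest with mitoxantrone alone and intermediate in the combination in these 8 libraries, the latter also above Gilteritinib by 0.54 (adjusted p = 0.00795, limma). Gilteritinib and Com did not overlap in all 12 libraries, with a fitted difference of 1.07 and an SE of 0.49 (adjusted p = 1, limma), or 0.55 without Com library 1. Gilteritinib and Mito-Lipo did not overlap either, at -1.54 with an SE of 0.49 (adjusted p = 0.358, limma). That last difference over libraries 2 and 3 was -1.10 (adjusted p = 8.54e-05, limma), and with a term for the libraries numbered 1 it passed over all 12 libraries (adjusted p = 0.0381, limma).

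Between Gilteritinib and DMSO the direction in CDKN1A turned on library 1. The fitted difference was -0.34 with an SE of 0.49 (adjusted p = 1, limma), by number -1.22, 0.07 and 0.12, over libraries 2 and 3 0.10 (adjusted p = 0.318, limma) and without DMSO library 1 0.09.

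Set together, the 6 libraries with mitoxantrone exceeded the 6 without it by 1.14 in CDKN1A with an SE of 0.35 (adjusted p = 0.604, limma). CDKN1A was higher in 6 of 6 pairs that share the number and the gilteritinib treatment, with a mean difference of 1.14 and an SD of 0.59. An exact two-sided permutation test over the signs of the 6 pairs gave p = 0.0312, the smallest p that 64 arrangements allow, and it is 1 of 12 such tests made for 6 genes and 2 drugs, with no adjustment over them. Numbers 2 and 3 gave differences of 1.19 and 1.20 without gilteritinib and of 0.54 and 0.54 with it. The 6 pairs may thus not be independent units, which the test takes them to be. The difference over libraries 2 and 3 was 0.87 (adjusted p = 0.000259, limma). With gilteritinib CDKN1A was lower by the fit, at -0.41 with an SE of 0.35 (adjusted p = 1, limma), in 4 of 6 pairs (exact permutation p = 0.125), and over libraries 2 and 3 at -0.23 (adjusted p = 0.00887, limma).

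CDKN1B encodes p27, which restrains CDK2 in resting cells and is removed through the SKP2 ligase. The gene is on chromosome 12 at 12715058 to 12722371 (GRCh38, plus strand). Its level was 37.89 to 51.86 in all 12 libraries, with the lowest value in Com library 1 and the highest in DMSO library 2. The condition means were 44.71 ± 2.94 in Mito-Lipo, 46.53 ± 3.68 in Gilteritinib, 45.87 ± 6.96 in Com and 48.46 ± 3.19 in DMSO (SD, n = 3). All conditions overlapped, and the 6 differences between conditions lay between -0.11 and 0.06 on the log2 scale, each with an SE of 0.11. CDKN1B was called in none of the 9 comparisons of treatments by limma, over all 12 libraries or over libraries 2 and 3.

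CDKN1C encodes p57, an imprinted member of the family on chromosome 11 at 2883213 to 2885773 (GRCh38, minus strand). It had 23 fragments in the 12 libraries together, at most 6 in a library and a highest FPKM of 0.0881 in Com library 1. In 4 libraries it had 0 fragments, which allows up to 3 fragments, or an FPKM of 0.0409 to 0.0488 depending on depth, counting error only. No treatment brought it to an FPKM of 1, and it was left out of the main tests.

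CDKN2A gives rise to p16INK4a, which binds CDK4 and CDK6, and from another first exon to p14ARF, which binds MDM2 and so protects p53. The table has 1 value for both. The gene is on chromosome 9 at 21967753 to 21995301 (GRCh38, minus strand), and 341 of its exon bases lie opposite exons of the antisense gene CDKN2B-AS1. The library kit marks no strand, so those reads cannot be told apart. CDKN2B-AS1 was at 7.28 to 8.90 in all 12 libraries. The stretches before both RefSeq starts are shown because the gene value sums them, first the upstream start (chr9:21995325-21995444, GRCh38.p14, minus strand) and then the downstream start (chr9:21974858-21974977, minus strand), with GGGCGG in capitals.
CDKN2A upstream: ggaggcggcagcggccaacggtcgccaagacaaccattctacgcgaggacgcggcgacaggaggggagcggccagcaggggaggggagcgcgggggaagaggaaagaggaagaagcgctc
CDKN2A downstream: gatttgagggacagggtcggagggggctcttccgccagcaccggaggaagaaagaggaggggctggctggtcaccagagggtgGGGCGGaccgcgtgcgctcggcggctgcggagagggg

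CDKN2A was at 38.3, 39.56 and 39.93 in DMSO, in the order of library number. It was at 40.61, 23.22 and 20.95 in Mito-Lipo, 38.55, 23.81 and 23.28 in Gilteritinib, and 41.88, 30.21 and 29.69 in Com. All 4 libraries numbered 1 lay within 38.3 to 41.88 whatever the treatment, whereas libraries 2 and 3 of each treated condition were under both of DMSO. The conditions overlapped in all 12 libraries.

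The fitted difference of CDKN2A from DMSO was -0.52 in Mito-Lipo, -0.48 in Gilteritinib and -0.22 in Com, each with an SE of 0.25 (adjusted p = 0.658, 1 and 1, limma). Over libraries 2 and 3, CDKN2A fell by 0.82 in Mito-Lipo (adjusted p = 0.000904) and by 0.73 in Gilteritinib (adjusted p = 0.00892, limma), while Com was at -0.40 (adjusted p = 0.13, limma). In libraries 1 the same differences were 0.08, 0.01 and 0.13. Com was above Mito-Lipo in 3 of 3 numbers, at a fitted 0.30 with an SE of 0.25 (adjusted p = 0.978, limma), and over libraries 2 and 3 it was higher by 0.42 with an SE of 0.05 (adjusted p = 0.00883, limma). Com was also above Gilteritinib in 3 of 3 numbers, at 0.33 in those 8 libraries, which did not pass the test (adjusted p = 0.155, limma).

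CDKN2B encodes p15, the neighbor of CDKN2A and an early target of TGF-beta signaling, on chromosome 9 at 22002903 to 22009363 (GRCh38, minus strand). Its level was 2.41 to 3.69 in all 12 libraries, on 341 to 502 fragments each. Gilteritinib library 2 was lowest and Com library 3 highest, and all conditions overlapped. The 6 differences between conditions lay between -0.10 and 0.23, each with an SE of 0.11, and limma called none of them, over all libraries or over libraries 2 and 3. The transcripts of CDKN2A and CDKN2B share 31 stretches of 50 bases, 0.765% of those of CDKN2B.

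CDKN2C encodes p18, an INK4 protein of dividing and maturing blood cells, on chromosome 1 at 50960745 to 50974633 (GRCh38, plus strand). Of its 3 RefSeq starts the second has the most GGGCGG motifs of all the members' windows and is shown for that (chr1:50968586-50968705, GRCh38.p14, plus strand).
CDKN2C: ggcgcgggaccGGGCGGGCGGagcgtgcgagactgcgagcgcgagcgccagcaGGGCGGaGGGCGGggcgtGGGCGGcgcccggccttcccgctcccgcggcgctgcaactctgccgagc

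In Mito-Lipo CDKN2C was at 14.1, 13.07 and 13.58, the lowest and tightest set of its values. DMSO had 15.26, 21.32 and 23.76, Gilteritinib 20.44, 14.76 and 14.74, and Com 15.48, 19.03 and 20.41. Mito-Lipo overlapped with none of the other conditions and lay below each of them. Gilteritinib split by number, with library 1 near the level of Com and libraries 2 and 3 near that of Mito-Lipo.

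The fitted difference of CDKN2C between Mito-Lipo and DMSO was -0.51 with an SE of 0.17 (adjusted p = 0.507, limma). With libraries 2 and 3 alone it fell by 0.72 with an SE of 0.06 (adjusted p = 0.00301, limma). For Gilteritinib the difference from DMSO was -0.25 with an SE of 0.17 (adjusted p = 1, limma), 0.40 in library 1 and -0.58 over libraries 2 and 3 (adjusted p = 0.0278, limma). Com was at -0.12 with an SE of 0.17 (adjusted p = 1, limma) and over libraries 2 and 3 at -0.18 (adjusted p = 0.568, limma). The combination was above Mito-Lipo by 0.40 with an SE of 0.17 (adjusted p = 0.891, limma), and over libraries 2 and 3 by 0.53 (adjusted p = 0.00815, limma).

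CDKN2D encodes p19, the INK4 protein that rises and falls with the cell cycle in many cells, on chromosome 19 at 10566462 to 10569059 (GRCh38, minus strand). Its promoter stretch is shown as that of the member with the clearest difference between library numbers (chr19:10568980-10569099, GRCh38.p14, minus strand).
CDKN2D: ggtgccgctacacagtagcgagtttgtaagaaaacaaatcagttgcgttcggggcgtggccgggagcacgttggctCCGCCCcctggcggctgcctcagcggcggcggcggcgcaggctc

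CDKN2D was at 7.03, 18.18 and 17.56 in DMSO. Mito-Lipo had 6.63, 12.72 and 13.45, Gilteritinib 7.49, 13.21 and 13.29, and Com 5.75, 13.08 and 13.33. The 4 libraries numbered 1 were all under the other 8, and among libraries 2 and 3 the 6 treated ones were all under the 2 of DMSO. Over 12 libraries all conditions overlapped, and the differences from DMSO were -0.31 in Mito-Lipo, -0.24 in Gilteritinib and -0.36 in Com, each with an SE of 0.41 (adjusted p = 0.938, 1 and 1, limma). Over libraries 2 and 3 CDKN2D fell by 0.42 in Mito-Lipo (adjusted p = 0.00573) and by 0.41 in Gilteritinib (adjusted p = 0.0286, limma), and Com was at -0.41 (adjusted p = 0.0991, limma). Between the 3 treatments the CDKN2D differences in these libraries lay from -0.01 to 0.02 with an SE of 0.04, and limma called none.

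Counted over the members, limma called 0 of 6 in each of the 6 comparisons between conditions over all 12 libraries. The background there was 0% of 18574 genes for Mito-Lipo, 0% for Gilteritinib and 0.00538% for Com against DMSO, and 0% for Com against Mito-Lipo, 0% for Com against Gilteritinib and 0% for Gilteritinib against Mito-Lipo. Voom on the recovered fragments also called 0. At an unadjusted p under 0.05, Mito-Lipo against DMSO had 2 of 6 members, CDKN1A and CDKN2C (background 7.9%), Com against Mito-Lipo had 1, CDKN2C (5.53%), and Gilteritinib against Mito-Lipo had 1, CDKN1A (9.52%). Gilteritinib against DMSO (1.86%), Com against DMSO (1.67%) and Com against Gilteritinib (1.63%) had 0. With the library number as a block, which takes libraries of the same number as paired, limma again called 0. At an unadjusted p under 0.05 it then had 4 members in Mito-Lipo against DMSO (15.9%), and 2 each in Gilteritinib against DMSO (4.96%), Com against DMSO (4.35%) and Com against Gilteritinib (4.39%).

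With libraries 2 and 3 alone the counts were higher. Mito-Lipo against DMSO had 4 of 6 members called, CDKN1A up and CDKN2A, CDKN2C and CDKN2D down, where 6.41% of all genes were called. Gilteritinib against DMSO had 3, all down, with 0.614% of all genes called. Com against DMSO had 1, CDKN1A, with 0.0485%. Com against Mito-Lipo had 3, CDKN1A down and CDKN2A and CDKN2C up (6.13%), Com against Gilteritinib had 1, CDKN1A up (0.0754%), and Gilteritinib against Mito-Lipo had 1, CDKN1A down (6.63%). Comparisons that share a condition share its libraries. Each of these fits rests on 2 libraries per condition that resemble each other.

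CDKN1A and CDKN2C were the only members with groups that did not overlap in all 12 libraries. Mito-Lipo and DMSO were apart in CDKN2C alone (background 13.6%), Com and Mito-Lipo in CDKN2C (9.34%), Com and Gilteritinib in CDKN1A (6.2%), and Gilteritinib and Mito-Lipo in CDKN1A and CDKN2C (14.4%). Gilteritinib and DMSO (6.57%) and Com and DMSO (5.73%) were apart in 0 members.

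The interaction asks whether the effect of mitoxantrone differed with gilteritinib present, and is the difference of Com from Gilteritinib, from which that of Mito-Lipo from DMSO is subtracted. Limma called 0 of 6 members (0% of all genes) and had 2 at an unadjusted p under 0.05 (2.91%), CDKN2A at 0.78 with an SE of 0.35 and CDKN2C at 0.65 with an SE of 0.24. For both, the adjusted p was 1. In libraries 2 and 3 it called 4 of 6 members (2.97%). CDKN2A was at 1.16 (adjusted p = 0.0017), CDKN2C at 1.11 (adjusted p = 0.00298) and CDKN2D at 0.42 (adjusted p = 0.0257, limma), Com lying less far below DMSO than the single-drug decreases would sum to. CDKN1A was at -0.66 (adjusted p = 0.0022, limma), its rise with mitoxantrone being 1.20 without gilteritinib and 0.54 with it. Over all 12 libraries the CDKN1A interaction was -0.13 with an SE of 0.70 (adjusted p = 1, limma), and in library 1 the order was the other way, with 1.21 without gilteritinib and 2.13 with it. The gilteritinib dose was not the same with and without mitoxantrone.

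Across the pooled drugs, limma called 0 of 6 members with against without mitoxantrone (0%) and 1 at an unadjusted p under 0.05, CDKN1A (6.38%), or 2 with the library number as a block, CDKN1A and CDKN2D (13.4%). With against without gilteritinib it called 0 (0%) and had 0 at an unadjusted p under 0.05 (4.15%). In libraries 2 and 3 it called CDKN1A, CDKN2A and CDKN2D for mitoxantrone (1.2%) and CDKN1A and CDKN2D for gilteritinib (2.9%). CDKN2D was lower there with mitoxantrone by 0.21 (adjusted p = 0.0441, limma). CDKN2A was lower by 0.24 (adjusted p = 0.0442, limma), against -0.13 over all 12 libraries, where it was higher in 4 of 6 pairs. The arms of CDKN2A went opposite ways in libraries 2 and 3, with Mito-Lipo under DMSO by 0.74 and 0.90 and Com above Gilteritinib by 0.33 and 0.34.

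The members also differed between library numbers. In library 1 against libraries 2 and 3, limma called 3 of 6 members, where 39.6% of all genes were called and 48.9% had an unadjusted p under 0.05, so the count is near the background. CDKN1A was higher in library 1 by 1.04 with an SE of 0.20 (adjusted p = 0.00339, limma). CDKN2A was higher by 0.49 with an SE of 0.11 (adjusted p = 0.00807, limma). CDKN2D was lower by 0.98 with an SE of 0.07 (adjusted p = 2.62e-05, limma), a fold of 0.505. CDKN1B became the fourth, at -0.22 (adjusted p = 0.0185, limma), without Gilteritinib library 1, and had -0.12 (adjusted p = 0.201, limma) with it.

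The split differed in shape between members. CDKN2D in library 1 was 0.393 to 0.565 of the mean of libraries 2 and 3 in all 4 conditions. CDKN1A was at 2.5, 3.03 and 2.52 times that mean in Mito-Lipo, Com and DMSO and at 0.983 in Gilteritinib. CDKN2A was at 1.84, 1.64 and 1.4 times in the treated conditions and at 0.964 in DMSO. What a library number stands for is not given in the sources used here, and its part in these values was not tested.

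**Figure D1:**
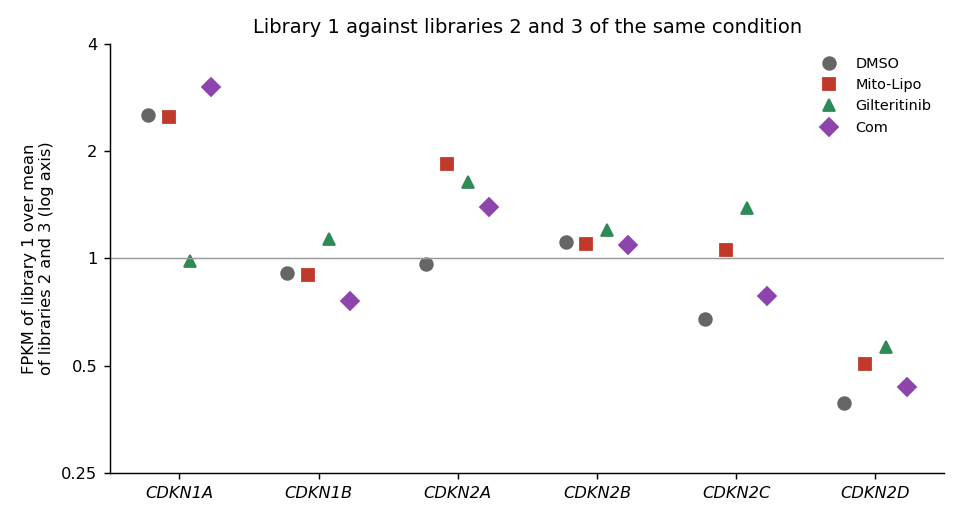
FPKM of library 1 over the mean FPKM of libraries 2 and 3 of its condition (vertical axis, log scale) for the 6 expressed members. Each point is 1 condition. CDKN2D is under 1 in all 4 conditions (0.393 to 0.565), and CDKN1A is above 2 in DMSO, Mito-Lipo and Com but at 0.983 in Gilteritinib.

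Summed by family, the CIP/KIP genes were at an FPKM of 112.6 ± 36.5 in Mito-Lipo, 67.0 ± 3.63 in Gilteritinib, 96.89 ± 28.8 in Com and 77.39 ± 14.5 in DMSO (SD, n = 3). The INK4 genes were at 55.79 ± 7.61, 59.32 ± 8.92, 66.4 ± 0.945 and 76.68 ± 11.2 in the same order. Mito-Lipo had the highest CIP/KIP and the lowest INK4 mean. For INK4 this held in libraries 2 and 3, with Mito-Lipo at 52.0 and 50.83, but not in library 1, with Mito-Lipo at 64.55 and DMSO at 63.85. In DMSO the order of the families turned with the library number, with CIP/KIP at 93.96 and INK4 at 63.85 in library 1, 71.16 and 82.09 in library 2, and 67.05 and 84.1 in library 3. These sums rest on the recovered gene lengths and are a description, with no test.

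RefSeq windows of 300 bases, 250 before to 50 after a start, were found for 6 of 7 members, 9 windows in all. GGGCGG on either strand, overlapping copies counted, was in 7 of the 9 windows and in 45% of all 35116 windows. CDKN2C had 6 copies at its second start, CDKN1A 4, CDKN2D 3 and CDKN2A 2 at the downstream start and 0 at the upstream one. TATAAA on either strand was in 0 of 9 windows, against 11.5% of all windows. The E2F motifs TTTGGCGC, TTTCCCGC, TTTCGCGC and TTTGCCGC on either strand were in 0 of 9, against 3.31%. With no match to the other motifs, only GGGCGG copies overlapped each other in these windows.

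Genes with the pattern most like a member were sought among 9382 genes with a mean FPKM of at least 5, by Pearson r of log2(FPKM + 1) over the 12 libraries. These r are descriptions, and the points share the split between library 1 and libraries 2 and 3. For CDKN1A they were AAK1, a kinase of endocytosis, at 0.944, ENSG00000261799 at 0.935 and ZNF641 at 0.93. AAK1 is among the 20 genes whose values were whole fragments in fewer than 10 libraries. For CDKN2D they were MARS1, a transfer RNA synthetase, at 0.98, SLC1A5, a glutamine carrier, at 0.978 and PSAT1, an enzyme of serine synthesis, at 0.976. CDKN2A had TRAPPC12 at 0.989, TMEM160 at 0.981 and CLEC11A, a growth factor of blood cells, at 0.981. CDKN2C had NXT1 at 0.924, UBE2S, a ubiquitin enzyme of mitosis, at 0.921 and DSCC1, which loads the replication clamp, at 0.893. CDKN1B had PAIP1P2 at 0.885, MYDGF at 0.856 and NET1 at 0.851, and CDKN2B had UMAD1 at 0.865, ENSG00000244313 at 0.842 and TET2-AS1 at 0.835.

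Among neighbors on the chromosome, RAB44 after CDKN1A was at 14.4 to 23.5 and FAF1 before CDKN2C at 13.8 to 18.5. KRI1, next to CDKN2D, was at 10.3 to 15.4, and GPR19 before CDKN1B at 0.273 to 0.68. Next to CDKN1C, KCNQ1DN and SLC22A18AS did not exceed an FPKM of 0.285. Between CDKN2A and CDKN2B lies AL449423.1, at 1.81 to 5.85. The antisense DINOL, which overlaps CDKN1A in 146 exon bases, was at 0 to 0.239.

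The partners and regulators of these inhibitors were read from 6 gene lists. In with against without mitoxantrone over all 12 libraries, limma called 0 genes of every list at an adjusted p under 0.05, and voom called 0 of all genes.

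Of 25 other genes in the list of p53 and its targets, 24 were tested. All 24 were higher with mitoxantrone by the fit, as were 59.0% of all genes, with a median of 0.35 against 0.03 for all genes. Of the 24, 5 had an unadjusted p under 0.05, against 6.38% of all genes. BTG2, an antiproliferative p53 target, was at 37.1 ± 10.3 in Mito-Lipo, 11.5 ± 1.56 in Gilteritinib, 18.7 ± 4.43 in Com and 11.9 ± 2.48 in DMSO, a difference of 1.10 with an SE of 0.16 (adjusted p = 0.331, limma). BTG2 rose by 1.0 over libraries 2 and 3 (adjusted p = 0.000743, limma). PLK3, a stress kinase, differed by 0.46 (adjusted p = 0.504, limma) and over libraries 2 and 3 by 0.38 (adjusted p = 0.0925, limma). TNFRSF10B, the death receptor DR5, differed by 0.43 (adjusted p = 0.604, limma) and over libraries 2 and 3 by 0.26 (adjusted p = 0.0348, limma). Over libraries 2 and 3 limma called 3 of the 24 genes in with against without mitoxantrone (1.2% of all genes). In library 1 against libraries 2 and 3, 19 of these 24 genes were called and 18 of the 19 were higher, again with 39.6% of all genes called. MDM2, the ligase that degrades p53, was at 82.8 and 80.3 in library 1 of Mito-Lipo and Com, at 34.4 and 32.3 in library 1 of Gilteritinib and DMSO, and at 20.6 to 30.6 in the other 8. Like CDKN1A, MDM2 was thus highest in library 1 of the conditions with mitoxantrone.

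Of 13 CDKs and cyclins that the inhibitors bind, 12 were tested. In with against without mitoxantrone 4 of 12 were higher, with a median of -0.09, and the 3 with an unadjusted p under 0.05 (6.38% of all genes) were lower. They were the mitotic cyclins CCNB2 at -0.20 and CCNB1 at -0.22 and the S-phase cyclin CCNA2 at -0.24 (adjusted p = 0.604, 0.722 and 0.624, limma). CCNA2 was at 53.6 ± 1.86 in Mito-Lipo, 70.7 ± 10.6 in Gilteritinib, 65.8 ± 7.83 in Com and 70.0 ± 3.72 in DMSO. In libraries 2 and 3 none of these 3 cyclins passed in that comparison (adjusted p = 0.305, 0.393 and 0.262, limma). The 1 list gene called in it was CCNA1, a germ-line and myeloid cyclin, which rose by 0.32 (adjusted p = 0.0203, limma), with 1.2% of all genes called. For Mito-Lipo against DMSO these libraries had 5 of 12 called, 2 up and 3 down (6.41% of all genes), and for Com against DMSO 0 (0.0485%). The 5 were CCNA1, CDK2, CCNA2, CCNE1 and CCND2. Com against Mito-Lipo also had 5 called there, CCNA2 and CCNB1 among them (6.13%).

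Of 13 RB and E2F genes 12 were tested, 3 of them higher with mitoxantrone at a median of -0.04. RBL1, which encodes the RB relative p107, was at -0.13, the repressor E2F8 at -0.24 and the E2F partner TFDP1 at -0.11 (adjusted p = 0.722, 0.86 and 0.863, limma). E2F8 fell by 0.23 over libraries 2 and 3 (adjusted p = 0.0354, limma), the 1 gene of the 12 called there (1.2% of all genes). RBL1 and TFDP1 did not pass in this comparison in those libraries (adjusted p = 0.459 and 0.198, limma). TFDP1 and E2F8 were the 2 genes called there in Com against Mito-Lipo (6.13% of all genes).

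For the 18 transcription regulators of the inhibitors, 16 were tested, 8 were higher and the median was 0.02. STAT3 was at 0.23, SMAD3 at 0.15 and STAT5A at 0.14 (adjusted p = 0.624, 0.838 and 0.889, limma). For the 15 Polycomb and INK4 locus regulators, 13 were tested, 5 were higher and the median was -0.04. ETS2, an activator of CDKN2A, was at -0.16, the Polycomb methylase EZH2 at -0.15 and the demethylase KDM6B at 0.27 (adjusted p = 0.604, 0.773 and 0.862, limma). Of 14 genes for the turnover of the inhibitor proteins, 13 were tested, 3 were higher and the median was -0.04. CDC20 was at -0.22, the p27 ligase subunit SKP2 at -0.19 and its cofactor CKS1B at -0.18 (adjusted p = 0.604, 0.637 and 0.783, limma). Over libraries 2 and 3 none of the genes named in this paragraph passed in with against without mitoxantrone (adjusted p = 0.0638 to 0.822, limma). Limma called 0 genes of these lists in that comparison (1.2% of all genes). In Mito-Lipo against DMSO the same libraries had 2 of 16, 2 of 13 and 3 of 13 genes called (6.41% of all genes). STAT3, ETS2, KDM6B, CDC20 and SKP2 were among them. Com against DMSO had 0 called in each of the lists (0.0485%).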

How the data were processed

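RNA of MV4-11 cells was sequenced in 12 libraries, 3 per condition, grouped by the labels. The authors deposited 1 table of FPKM per gene. The study's text gives TRIzol extraction, with sequencing by a company, whereas the labels give the miRNeasy kit, Geo-seq amplification and a TruePrep kit, which marks no strand. The submitters' processing notes name Bowtie 0.12.9, Cufflinks 2.1.1, HTSeq, DESeq2 and the build mm10, a mouse build, while the gene identifiers are human. The build behind the table is therefore uncertain. Positions and exons were taken from GENCODE 29 (GRCh38), and promoters from RefSeq (GRCh38.p14).

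FPKM were used as deposited, as log2(FPKM + 1), for the 18574 genes that reached an FPKM of 1 in 3 libraries or more. The tests were limma 3.58.1 in R 4.3.3 with 1 mean per condition, a trended prior variance and Benjamini-Hochberg adjustment over all genes tested. They were checked on simulated data of independent libraries. That check held no split between library numbers, so it does not cover the split seen here. The members and lists were chosen with earlier results of these data known. Genes named beside the members were the 3 most correlated with each, the 3 of each list with the smallest p in with against without mitoxantrone, and the nearest annotated genes. A list gene and a marker are not reported here. MDM2, CCNA1 and CDKN2B-AS1 were named after their values were seen.

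Depth and gene lengths were searched, up to 20000 nt, for values that make FPKM whole fragments, within what the rounding of FPKM to 4 decimals allows plus 0.002 of a fragment and a relative depth error. Of 14691 genes that reached an FPKM of 1 in every library, 14669 were whole in all 12, 2 in 10 or 11, CDKN1A among them, and 20 in fewer. Counting errors are the FPKM over the root of its fragments and cover counting error only.

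In the fit with the number as a block and in the exact permutation test, the libraries were taken as paired by their number, from the data and not the labels. The main limma fits did not pair them, so the spread between numbers is part of their SE. All 18 pairs of same-numbered libraries correlated in their deviations from the condition means, at 0.165 to 0.657. Libraries of different numbers were not compared in this way. Since the libraries numbered 1 stood apart in every condition, these values cannot tell whether numbers 2 and 3 form separate pairs. The fit with the number as a block, libraries 2 and 3 only, each library left out, other scalings, filters and pseudocounts, and voom on recovered fragments were the alternatives. All sample columns of the table were used (0 unused).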

Additional observations from a re-analysis of the deposited data

Results flagged for a closer look

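CDKN2B was picked out because libraries of the same number moved in opposite directions with the other drug absent and present. Mito-Lipo was below DMSO in 3 of 3 numbers, by at most 0.02 on the log2 scale, and Com was above Gilteritinib in 3 of 3, by 0.16, 0.23 and 0.29. The interaction was 0.24 with an SE of 0.16 and did not pass the test (adjusted p = 1, limma). The CDKN2B values rest on 341 to 502 fragments per library, with a counting error of 0.13 to 0.166 FPKM. Groups of 3 libraries were too small for a test of single outlying libraries.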

How the results depend on the processing

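Over all 12 libraries the counts of members called did not change with the pseudocount of 0.1, the filters, the scalings, the variance trend, protein-coding genes only, voom or only the 6 libraries compared, with 1 exception. Without the filter on low values, library 1 against libraries 2 and 3 had 4 in place of 3. The fit without that filter also tested CDKN1C, on at most 6 fragments per library. With the replicate block, which takes libraries of the same number as paired, no call changed. With every number in every condition, the block cannot move a fitted difference, only its SE. For CDKN1A in Mito-Lipo against DMSO the SE was 0.28 with the block and 0.49 without it (adjusted p = 0.13 and 0.582, limma). With each library left out in turn the counts were 0 to 0 in the 9 comparisons of treatments, 3 to 4 for library 1 against libraries 2 and 3, and 6 to 6 for the members expressed. The term for libraries numbered 1 called 1 member in Gilteritinib against Mito-Lipo.

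Libraries 2 and 3 alone called, against DMSO, 4 members in Mito-Lipo, 3 in Gilteritinib and 1 in Com, and further 3 in Com against Mito-Lipo, 1 in Com against Gilteritinib, 1 in Gilteritinib against Mito-Lipo, 4 in the interaction, 3 with against without mitoxantrone and 2 with against without gilteritinib, each against 0 over all libraries. At an unadjusted p under 0.05 over all libraries there were 2 in Mito-Lipo against DMSO, 1 in Com against Mito-Lipo, 1 in Gilteritinib against Mito-Lipo, 2 in the interaction and 1 with against without mitoxantrone. The cause of these differences was not tested.

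Of 648 alternative values of 28 single differences, 634 kept their direction and 14 turned, none of them past the threshold. In CDKN1A, Gilteritinib against DMSO turned from -0.34 to 0.097 over libraries 2 and 3, and with a library left out it ranged from -0.561 to 0.089, turning without DMSO library 1. The CDKN1A interaction of -0.13 ranged from -0.652 to 0.305, turning without Com library 2 or 3, DMSO library 2 or 3 or Mito-Lipo library 1. CDKN2C in Com against DMSO ranged from -0.293 to 0.011, turning without DMSO library 3. In CDKN2D, Gilteritinib against DMSO ranged from -0.654 to 0.006 (turning without Gilteritinib library 1), Com against DMSO from -0.768 to 0.001 (without Com library 1) and the interaction from -0.102 to 0.603 (without DMSO library 2 or 3, Gilteritinib library 1 or Mito-Lipo library 1). Depth limits CDKN1C, whose libraries had at most 6 fragments.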
